A study of Mus musculus with 12 samples.

Results

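The comparison described here set MC38 tumors of mice that received SFIH together with an anti-PD-1 antibody (Comb) against MC38 tumors of mice that received SFIH without it (SFIH). It held 6 of the 12 tumors of the series, 3 in each group, chosen by the names of the columns in the count table, and it covered all genes. The question it addresses is what the antibody adds in animals that also receive SFIH. MC38 cells, a line from a colon carcinoma of the mouse, were injected subcutaneously into the right flanks of female C57BL/6 mice, which were obtained at 6 weeks of age. Both groups received SFIH, a fraction of the root of Inula helenium rich in sesquiterpene lactones, by intraperitoneal injection of 50 mg/kg each day. The Comb mice also received 200 μg of the anti-PD-1 antibody (clone RMP1-14) 2 times a week, where mice without it received an isotype antibody, and all of the tumors were collected on day 19. The other 6 tumors, 3 of control mice (Con) and 3 of mice given the antibody without SFIH (PD), entered the fit for the spread between tumors and were used for the antibody effect in the absence of SFIH.

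PD-1 is an inhibitory receptor on activated T cells, and its ligand PD-L1 is carried by tumor cells and myeloid cells. An antibody that blocks the receptor releases T cells, whose interferon gamma acts on neighboring cells through factors such as IRF1 and induces chemokines such as CXCL9 as well as the genes of antigen presentation. SFIH consists mainly of alantolactone and isoalantolactone, whose reactive lactone groups bind cysteine residues of proteins.

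Levels are on the scale log2(CPM + 1), CPM being the count normalized to the TMM-scaled size of the library, and the values of a gene follow the order of tumors 1, 2 and 3. The labels call the samples tumor cells, but the RNA came from tumor tissue, and the libraries held genes of immune and stromal cells. In such bulk samples, more cells of a type and more RNA per cell cannot be told apart. Epithelial keratins were almost absent from the SFIH tumors, with Krt8 at 0.37, 1.31 and 0.70 and Krt18 at 0.45, 1.03 and 0.14. The intestinal genes Cdx1, Cdx2, Lgals4 and Tff3 had 0 or 1 count in each of the 6 tumors, so these markers gave no check of a colon carcinoma. Total counts were 12261032, 12123162 and 9773778 in the SFIH tumors and 10095648, 9841292 and 10981028 in the Comb tumors. The labels do not say whether the 3 tumors of a group came from 3 mice, and p-values therefore measure only the spread between these samples, which may be technical.

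The 3 Comb tumors were far from alike, and Comb 3 stood apart from all other tumors. Spearman's correlation over the 13464 genes tested, which describes these libraries only, was 0.975 to 0.988 among the SFIH tumors and 0.979 between Comb 1 and each of them. It was 0.923 to 0.947 between Comb 2 and the SFIH tumors, and 0.704 to 0.714 between Comb 3 and the SFIH tumors. In Comb 3, 471 genes lay more than 4-fold above and 700 genes more than 4-fold below all of the other 5 tumors, whereas in each of these 5 tumors such genes numbered 0 to 3 above and 0 or 1 below. Each result is therefore shown tumor by tumor, and with and without Comb 3 where a count or a median rests on it.

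By edgeR's quasi-likelihood test, 0 of the 13464 genes (0%) passed an adjusted p of 0.05 between Comb and SFIH, and the smallest adjusted p was 0.128. At an unadjusted p under 0.05 there were 1991 genes higher in Comb (14.8% of those tested) and 568 lower (4.22%). DESeq2, on the same genes, called 1056 higher (7.84%) and 101 lower (0.75%). The 3 Comb tumors all lay above the 3 SFIH tumors for 1030 genes (7.65%) and all below them for 1153 genes (8.56%), and these shares are the background for every count of genes without overlap. Leaving out Comb 3 gave 1434 genes (10.7%) above and 1619 genes (12%) below, with 0 genes called by edgeR and 77 higher (0.565%) and 17 lower (0.125%) called by DESeq2. Leaving out Comb 1 instead gave 2152 genes higher (15.5%) and 966 lower (6.97%) by edgeR, so that this library decided whether edgeR called any gene. For a single gene an exact two-sided permutation test of 3 tumors against 3 cannot give a p under 0.1, which is the value of every gene without overlap. The verbs rose and fell are kept for genes that passed DESeq2.

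Most genes of glycolysis and of the response to low oxygen were lower in all 3 Comb tumors. Of the 34 genes tested on the list of hypoxia, glycolysis and angiogenic factors, 29 had a lower fitted level in Comb, and 22 had all 3 Comb tumors below all 3 SFIH tumors. Without Comb 3 the number without overlap was 25 lower and 0 higher. This number cannot fall when a tumor is left out, and the share of all genes lower without overlap went from 8.56% to 12%. The median log2 fold change of the list was -0.65, and -0.54 without Comb 3, beside a median over all genes of -0.05 and -0.02. DESeq2 called 13 of the 34 genes lower and 1 higher, and 6 lower and 0 higher without Comb 3. Summed over the 35 members in the table, with CPM not scaled by TMM, the list took 8225 to 8521 CPM in the SFIH tumors, and 6026 in Comb 1, 4453 in Comb 2 and 3977 in Comb 3.

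**Figure D1:**
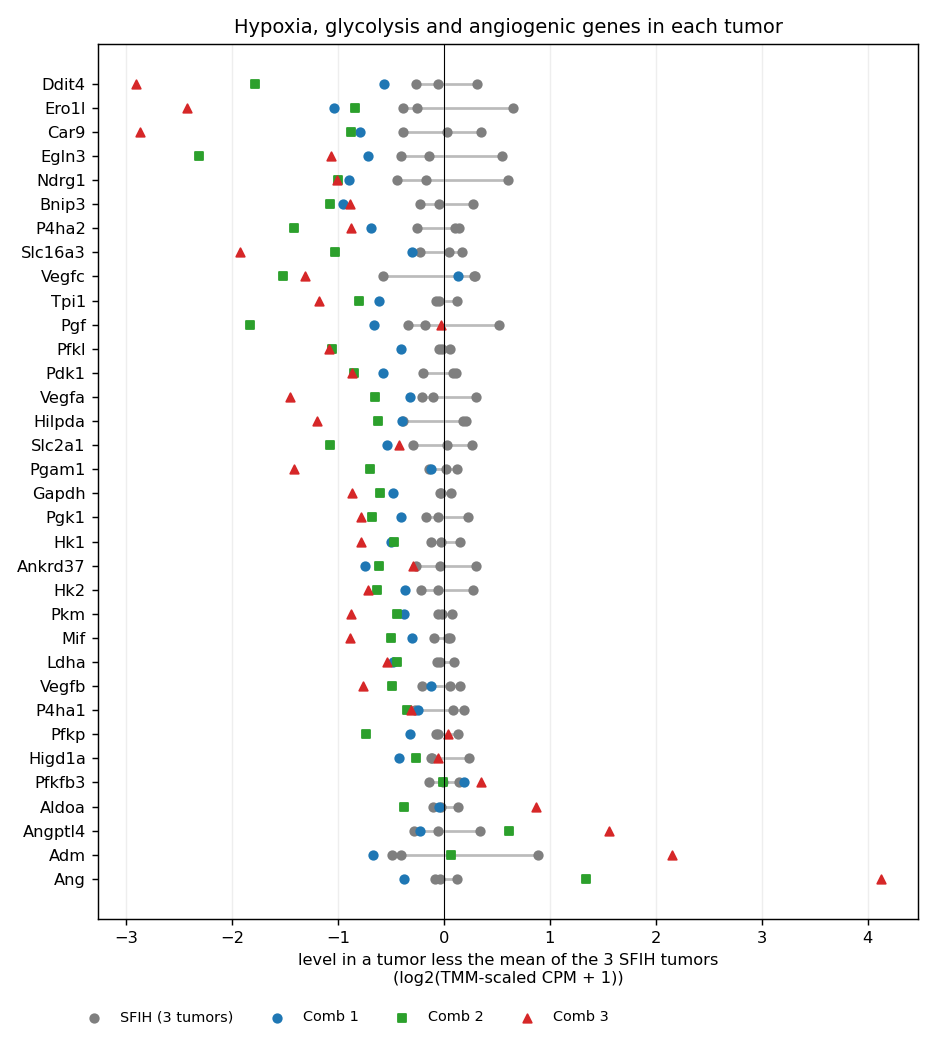
Level of each of the 34 tested genes of the hypoxia, glycolysis and angiogenic list in each tumor, less the mean of the 3 SFIH tumors, on the log2(TMM-scaled CPM + 1) scale, with grey points for the SFIH tumors and a grey line for their range. For 22 of the 34 genes all 3 Comb tumors lie to the left of the SFIH range, and Ang is the gene with Comb 3 farthest to the right.

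Bnip3, which encodes a receptor for the removal of mitochondria and is a classical target of the hypoxia-inducible factor HIF-1, was at 7.65, 7.46 and 7.97 in the SFIH tumors and at 6.74, 6.62 and 6.81 in the Comb tumors. The Comb tumors lay close to each other and below all SFIH tumors. The log2 fold change was -0.99 ± 0.19 (SE), with an unadjusted p of 0.000275 by edgeR, and Bnip3 fell by DESeq2 with an adjusted p of 0.000143 and of 0.000922 without Comb 3. Tpi1, the triosephosphate isomerase of glycolysis, was at 8.66, 8.86 and 8.69 in the SFIH tumors and at 8.12, 7.93 and 7.56 in the Comb tumors, again without overlap, with a log2 fold change of -0.85 ± 0.19. Gapdh, the next enzyme of the pathway, was at 6.98, 6.87 and 6.88 against 6.42, 6.31 and 6.04. Both genes fell by DESeq2, also without Comb 3 (adjusted p = 0.00617 for Tpi1 and 0.0334 for Gapdh). Eno1, an enolase on the same list, was below the filter, with 0, 0 and 1 counts in SFIH and 0 in each Comb tumor. How fully the reads of such glycolytic genes were counted was not tested.

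The later steps went the same way. Ldha, which makes lactate from pyruvate, was at 10.0, 9.97 and 10.13 in the SFIH tumors and at 9.56, 9.59 and 9.50 in the Comb tumors. The change was small on the log2 scale (-0.49 ± 0.16), but the tumors within a group lay closer together than the groups did. Ldha fell by DESeq2 (adjusted p = 0.00324) but missed the threshold without Comb 3 (0.0724). Pdk1, a kinase that inhibits pyruvate dehydrogenase, was at 5.66, 5.35 and 5.63 against 4.97, 4.70 and 4.67. It fell by DESeq2 with and without Comb 3 (adjusted p = 0.00149 and 0.0423). Pgk1 and Pkm, further enzymes of the pathway, had no overlap either, with log2 fold changes of -0.63 ± 0.18 and -0.55 ± 0.17.

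Slc2a1, which encodes the glucose transporter GLUT1, was at 7.29, 6.73 and 7.06 in the SFIH tumors and at 6.49, 5.96 and 6.60 in the Comb tumors. The gap between the groups was narrow, and the adjusted p by DESeq2 was 0.112. Vegfa, the main angiogenic factor among the targets of HIF-1, was at 6.56, 6.05 and 6.16 against 5.94, 5.61 and 4.80, also without overlap and with an adjusted p of 0.093 by DESeq2. The largest negative log2 fold changes on the list were those of Ddit4 (-1.47 ± 0.44), a stress-induced inhibitor of mTOR signaling, Ero1l (-1.37 ± 0.49), an oxidase of the endoplasmic reticulum, and Car9 (-1.35 ± 0.53), a carbonic anhydrase of hypoxic cells. Ddit4 fell by DESeq2 with and without Comb 3 (adjusted p = 0.0212 and 0.0421), whereas for Ero1l and Car9 the adjusted p was 0.0635 and 0.0999. Ang, which encodes the secreted ribonuclease angiogenin, was the 1 member that rose by DESeq2 (adjusted p = 0.00634, and 0.507 without Comb 3). It was at 3.29, 3.34 and 3.50 in the SFIH tumors and at 3.0, 4.72 and 7.51 in the Comb tumors, with Comb 1 below and Comb 2 and Comb 3 above the SFIH tumors.

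The promoters of these genes were searched for the letters that HIF-1 binds. The sequences are from RefSeq (GRCm38.p6), and the table used had promoter windows of 300 bases, 250 before and 50 after a start site, for 10108 of the genes tested. The core ACGTG was searched on both strands, counting a gene when any of its windows held it. It was found in 22 of the 31 members of the hypoxia list with a window (71%), beside 28.7% of all genes with one. The list was made of genes of these responses, so its higher share is not a result about these tumors. Among the members without overlap it was found in 17 of 20 (85%), and among the other members in 5 of 11 (45.5%), a difference that was not tested. The 250 bases before the start are printed for Bnip3 (chr7:138909507-138909756, minus strand) and Ldha (chr7:46845554-46845803, plus strand), 5′ to 3′, because they show the core on both strands and, in Ldha, more than once. The capitals mark ACGTG and its complement CACGT, which overlap where both strands match.
Bnip3: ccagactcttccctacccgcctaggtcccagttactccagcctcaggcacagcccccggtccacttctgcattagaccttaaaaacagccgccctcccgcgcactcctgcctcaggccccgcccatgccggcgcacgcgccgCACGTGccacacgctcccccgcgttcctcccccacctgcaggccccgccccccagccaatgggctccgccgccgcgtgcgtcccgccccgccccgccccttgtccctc
Ldha: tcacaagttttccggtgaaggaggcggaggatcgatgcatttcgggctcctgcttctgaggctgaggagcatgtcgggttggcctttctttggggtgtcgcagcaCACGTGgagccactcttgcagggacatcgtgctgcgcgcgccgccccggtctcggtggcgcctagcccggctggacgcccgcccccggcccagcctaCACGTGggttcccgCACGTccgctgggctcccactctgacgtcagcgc
A match of 5 letters is common, and it describes the sequence and not the binding of a factor.

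Outside that list, Pgm2, Gbe1 and Ppp1r3c were among the 12 genes of smallest unadjusted p in each direction. Pgm2, a phosphoglucomutase, was at 7.44, 7.76 and 7.81 in the SFIH tumors and at 6.69, 6.82 and 6.20 in the Comb tumors. Gbe1, the glycogen branching enzyme, was at 5.57, 5.30 and 5.70 against 5.06, 4.52 and 4.41. Ppp1r3c, a subunit that directs protein phosphatase 1 to glycogen, went the other way and was at 0.59, 0.29 and 0.70 against 1.60, 2.85 and 5.84. Lack of overlap between the groups was a condition for being chosen. All of these passed DESeq2, which used the same counts as the ranking. Without Comb 3 the adjusted p by DESeq2 was 0.015 for Pgm2, 0.0656 for Gbe1 and 0.0176 for Ppp1r3c.

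The interferon gamma response was higher in Comb, with the highest levels in Comb 2 and Comb 3 and little difference in Comb 1. Of its 35 genes, all of which were tested, 33 had a higher fitted level, 10 had no overlap and were higher, and 0 had no overlap and were lower. DESeq2 called 15 higher with Comb 3 and 4 without it. The median log2 fold change was 0.78, and 0.80 without Comb 3. The mean level of the list was 5.57, 5.55 and 5.51 in the SFIH tumors, and 5.65 in Comb 1, 6.73 in Comb 2 and 6.24 in Comb 3.

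Cxcl9, the chemokine that draws CXCR3-bearing T cells, was at 6.92, 6.74 and 6.73 in the SFIH tumors and at 7.61, 9.45 and 9.18 in the Comb tumors. All Comb tumors were above all SFIH tumors, Comb 1 by the smallest margin. The log2 fold change was 2.15 ± 0.44, with an adjusted p of 0.128 by edgeR, and Cxcl9 rose by DESeq2 both with Comb 3 (adjusted p = 0.000253) and without it (0.0423). Irf1, a transcription factor that interferon gamma induces, was at 8.04, 8.12 and 8.13 against 8.44, 9.09 and 8.58 and also rose by DESeq2 (adjusted p = 0.014, and 0.045 without Comb 3).

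Ifng, the gene of the cytokine, was at 1.64, 0.60 and 1.10 in the SFIH tumors and at 1.24, 3.53 and 3.59 in the Comb tumors, which is 29, 7 and 11 against 14, 92 and 92 counts. Comb 1 lay within the range of the SFIH tumors, and Comb 2 and Comb 3 lay above it. Ifngr1, a chain of its receptor, was at 5.79, 5.65 and 5.71 against 5.96, 7.07 and 8.25. Ciita, which switches on the MHC class II genes, had the largest log2 fold change of the list (3.67 ± 0.90) at low levels of 0.59, 0.46 and 0.14 against 0.91, 1.96 and 3.41. Both were without overlap. Cxcl10, a further CXCR3 ligand, did not go with Cxcl9 in every tumor, at 8.55, 8.69 and 8.42 in the SFIH tumors and at 8.6, 9.79 and 6.21 in the Comb tumors. Its level in Comb 3 was the lowest of the 6 tumors.

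Guanylate-binding proteins are GTPases that interferon gamma induces, and their reads may be shared between similar copies. Gbp4 was at 4.56, 4.56 and 4.07 against 4.72, 6.55 and 5.07 and Gbp5 at 5.63, 6.02 and 6.05 against 6.26, 7.33 and 6.72, higher in all 3 Comb tumors and highest in Comb 2. Both rose by DESeq2 also without Comb 3 (adjusted p = 0.0367 and 0.0424). Slfn5, a Schlafen protein that interferons induce and that was on no list, was at 5.95, 6.0 and 6.10 against 6.69, 7.57 and 7.86, with a log2 fold change of 1.45 ± 0.30.

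The promoter letters were described for this list in the same way. The interferon gamma activated site, spelled TTCNNNGAA, was present in the windows of 10 of 23 members (43.5%) beside 8.5% of all genes with a window. The interferon response element, spelled GAAANNGAA, was present in 13 of 23 members (56.5%) beside 8.98%. Both were searched on both strands, and matches to the 2 can overlap. The list was made of genes of the interferon gamma response, so its higher shares are not a result about these tumors. The 250 bases before the start of Irf1 (chr11:53769764-53770013, plus strand) are printed with TTCNNNGAA in capitals, and those of Cxcl9 (chr5:92328080-92328329, minus strand) with GAAANNGAA in capitals, as an example of each.
Irf1: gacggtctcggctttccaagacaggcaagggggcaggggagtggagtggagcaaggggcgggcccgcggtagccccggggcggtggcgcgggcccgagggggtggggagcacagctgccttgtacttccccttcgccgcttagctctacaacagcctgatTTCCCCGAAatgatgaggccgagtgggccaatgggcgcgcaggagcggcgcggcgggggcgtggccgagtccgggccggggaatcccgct
Cxcl9: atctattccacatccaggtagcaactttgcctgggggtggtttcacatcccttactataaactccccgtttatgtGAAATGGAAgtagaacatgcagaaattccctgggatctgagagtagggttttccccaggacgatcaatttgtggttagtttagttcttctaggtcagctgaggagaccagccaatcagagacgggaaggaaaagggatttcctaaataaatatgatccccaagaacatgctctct
In Irf1 the match begins 90 bases and in Cxcl9 175 bases before the start.

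The type I interferon response went apart from the interferon gamma response in Comb 3. Its 34 tested genes had a median log2 fold change of -0.32, and of 0.03 without Comb 3, and 0 had the groups without overlap. The mean level of the list was 6.43, 6.87 and 6.54 in SFIH, 6.72 in Comb 1, 6.71 in Comb 2 and 4.61 in Comb 3. Isg15, a ubiquitin-like protein that interferon alpha and beta induce, was at 9.26, 9.61 and 9.44 against 9.57, 9.97 and 7.17. Oas3, a sensor of double-stranded RNA, was at 5.64, 5.78 and 5.28 against 5.72, 4.72 and 0.57, and Ifit1, which binds foreign RNA, was at 7.86, 8.19 and 7.79 against 8.15, 8.83 and 5.25. In each of the 3 genes Comb 3 was the lowest tumor. The interferon response element was found in 17 of the 25 members with a window (68%).

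**Figure D2:**
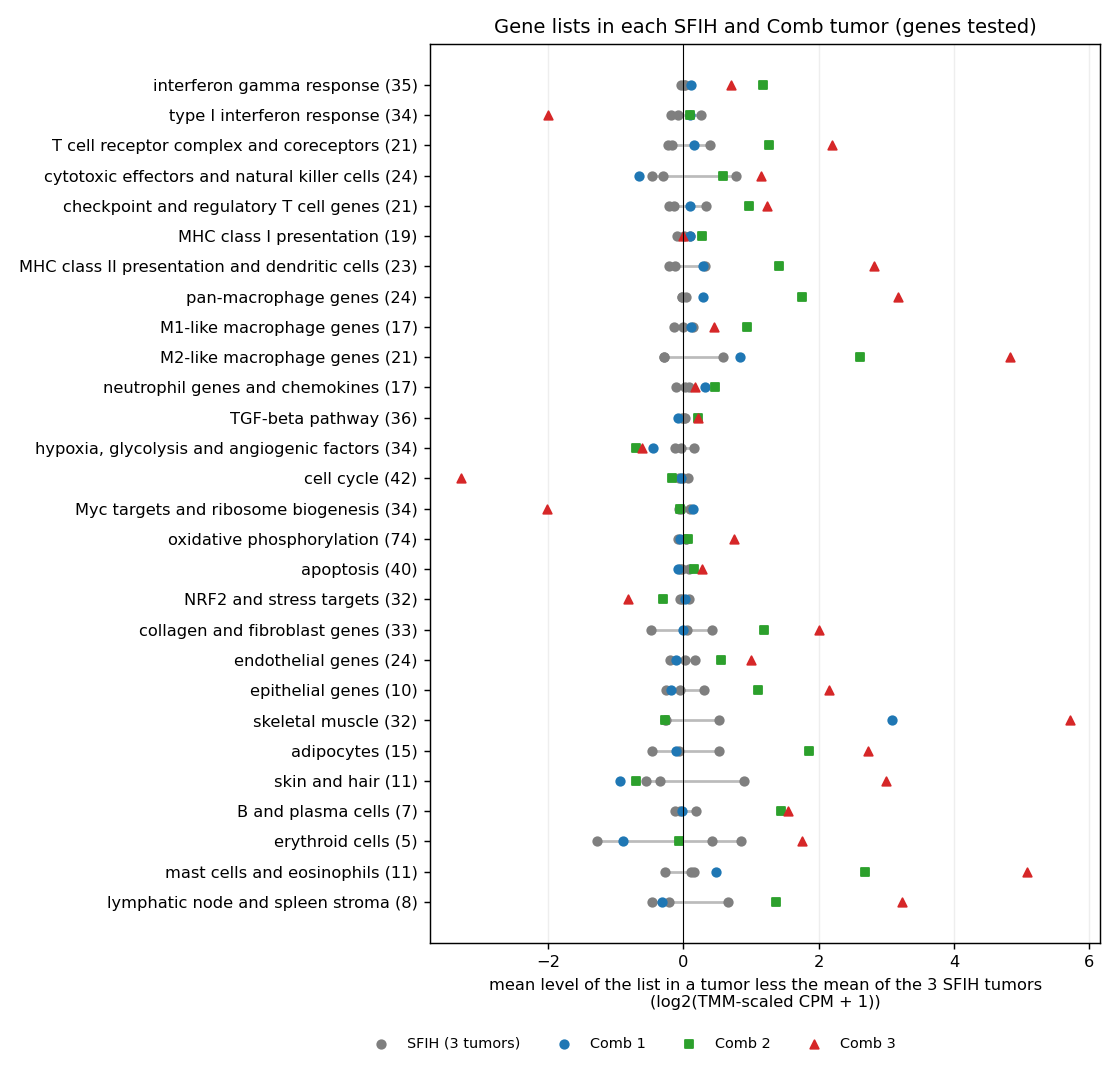
Mean level of each of the 28 gene lists in each tumor, less the mean of the 3 SFIH tumors, on the log2(TMM-scaled CPM + 1) scale, with the number of genes tested in parentheses and a grey line for the range of the SFIH tumors. Comb 1 (blue) lies near the SFIH tumors for most lists, with skeletal muscle as the largest exception, Comb 3 (red) lies far from them for many lists, and in the hypoxia list all 3 Comb tumors lie on the low side.

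T cell genes were higher in Comb 2 and Comb 3 and close to SFIH in Comb 1. Of the 21 genes tested for the T cell receptor complex and its coreceptors, 19 had a higher fitted level, 5 had no overlap and were higher, and 1 (Cd6) had no overlap and was lower. Over the list the median log2 fold change was 2.05, and 0.97 without Comb 3, and DESeq2 called 10 higher with Comb 3 and 0 without it. Cd8a, the coreceptor of cytotoxic T cells, was at 3.0, 2.51 and 2.66 in the SFIH tumors and at 2.40, 4.46 and 4.41 in the Comb tumors, so that Comb 1 lay below all SFIH tumors. Cd4, the coreceptor of helper T cells, was at 1.30, 0.92 and 0.87 against 1.74, 3.20 and 4.71 without overlap, and Cd3e, a chain of the receptor complex, was at 1.88, 1.40 and 1.03 against 1.65, 2.08 and 4.01 with overlap. Summed over the 22 members in the table, these genes took 43.7 to 86.8 CPM in SFIH, and 67.5 in Comb 1, 179 in Comb 2 and 391 in Comb 3.

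The cytotoxic genes split by member. Of the 24 genes tested on the list of cytotoxic effectors and natural killer cells, 16 had a higher fitted level, and 4 granzymes were lower in Comb without overlap. Gzmc, one of the granzymes encoded beside granzyme B, was at 7.68, 6.07 and 6.01 in the SFIH tumors and at 4.46, 4.24 and 3.56 in the Comb tumors. Its counts were 2809, 889 and 608 against 217, 156 and 90, where Cd3e had 37, 22 and 10 against 22, 28 and 126. Which cells gave the Gzmc reads was not tested. All Comb tumors lay well below the SFIH tumors, with a log2 fold change of -2.74 ± 0.54, and Gzmc fell by DESeq2 with Comb 3 (adjusted p = 9.28e-05) and without it (0.0268). Its neighbors Gzmd, Gzme and Gzmg had log2 fold changes of -2.33 ± 0.95, -2.24 ± 1.06 and -2.11 ± 1.03 and adjusted p of 0.0848, 0.171 and 0.176 by DESeq2. These granzymes resemble each other in sequence, and reads may be divided between them.

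Gzmb, the granzyme most used as a marker of killing, was at 5.67, 3.93 and 3.63 in the SFIH tumors and at 3.64, 4.43 and 4.22 in the Comb tumors, with overlapping groups. Its counts of 688, 191 and 109 in SFIH far exceeded those of Cd3e (37, 22 and 10), and the source of the Gzmb reads was not tested. Prf1, which forms the pore for granzymes, had few counts, 19, 7 and 16 against 17, 2 and 0. Gzma was at 4.61, 2.98 and 1.67 against 3.35, 4.56 and 7.11. Natural killer receptors were among the higher members, with log2 fold changes of 3.64 ± 1.0 for Klra7 and 3.37 ± 1.07 for Klrb1c, both of which rose by DESeq2 with Comb 3 only. Klra7 was at 1.30, 0.60 and 0.39 against 1.30, 2.12 and 4.69, with Comb 1 level with the highest SFIH tumor. Ncr1, which encodes the activating receptor NKp46, overlapped between the groups, at 2.32, 0.98 and 0.27 against 1.11, 1.77 and 2.35. The median log2 fold change of the list was 1.31, and 0.50 without Comb 3.

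Among checkpoint genes, Pdcd1, which encodes PD-1, was at 1.53, 1.08 and 0.79 in the SFIH tumors and at 0.91, 2.12 and 2.41 in the Comb tumors, and Cd274, which encodes PD-L1, was at 5.95, 4.93 and 5.76 against 5.81, 6.89 and 5.18. Neither separated the groups. Ctla4, a second inhibitory receptor of T cells, was at 1.5, 0.92 and 0.50 against 1.18, 2.36 and 2.76. Foxp3, the factor of regulatory T cells, was nearly level, at 4.64, 4.32 and 4.39 against 4.45, 4.24 and 4.67. In the SFIH tumors its counts of 328, 256 and 192 far exceeded those of Cd3e (37, 22 and 10) and Cd4 (20, 12 and 8). The source of the Foxp3 reads was not tested, so its level is no measure of regulatory T cells here. Of the 21 genes tested on the list of checkpoint and regulatory T cell genes, 18 had a higher fitted level (median log2 fold change 1.63, and 0.72 without Comb 3), 5 had no overlap and were higher, and 1 had no overlap and was lower. Among the former were Tnfrsf18 (GITR), at 3.05, 2.39 and 2.28 against 3.27, 4.13 and 5.64, and Pdcd1lg2 (PD-L2), at 1.60, 0.53 and 0.39 against 1.97, 2.54 and 6.64. The latter was Tnfrsf9 (4-1BB), a costimulatory receptor of activated T cells, at 5.96, 5.62 and 6.02 against 4.65, 5.35 and 4.36. The source of the Tnfrsf9 reads was not tested either.

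Il18r1, the receptor for interleukin 18 on T and natural killer cells, had the smallest unadjusted p of the higher genes of that plot, which was 0.000249 by edgeR. It was at 0.96, 0.74 and 1.17 in the SFIH tumors and at 1.93, 3.06 and 3.61 in the Comb tumors. Lack of overlap was a condition for genes of that plot, and Il18r1 rose by DESeq2 also without Comb 3 (adjusted p = 0.0194). Raet1b, a ligand of the activating receptor NKG2D that has near-identical copies, was lower without overlap, at 3.82, 3.64 and 3.39 against 2.73, 2.26 and 2.41.

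**Figure D3:**
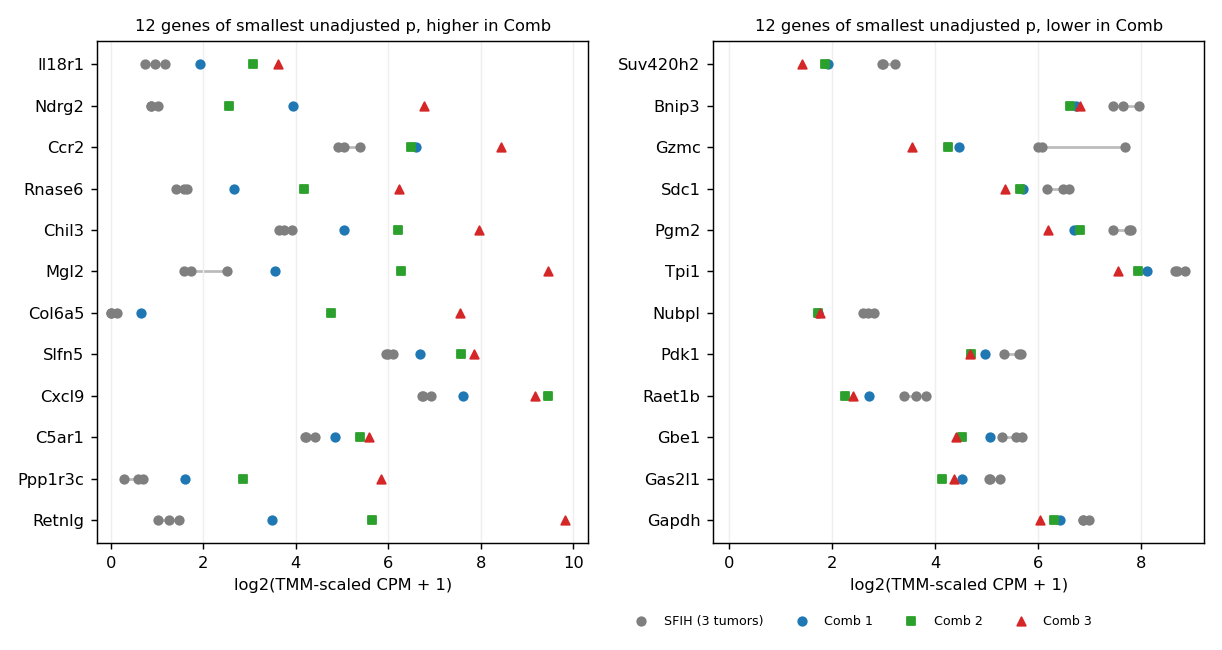
Level (log2(TMM-scaled CPM + 1)) in each tumor of the 12 genes of smallest unadjusted p in each direction among genes without overlap and with a mean count of 50 or more in the group where they were higher. Among the higher genes the Comb tumors range from 3.49 to 9.83 for Retnlg and from 4.85 to 5.59 for C5ar1, and among the lower genes from 6.62 to 6.81 for Bnip3 and from 3.56 to 4.46 for Gzmc.

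Genes of MHC class II and of macrophages had the highest values in Comb 3 and intermediate values in Comb 2. H2-Ab1, a chain of the class II molecule, was at 7.13, 6.16 and 5.74 in the SFIH tumors and at 7.34, 9.78 and 12.16 in the Comb tumors. Cd74, the invariant chain, was at 7.67, 6.85 and 6.44 against 7.78, 10.41 and 13.29. In both genes Comb 1 lay barely above the highest SFIH tumor. The log2 fold changes were 4.43 ± 1.01 and 4.85 ± 1.11, and both genes rose by DESeq2 (adjusted p = 4.96e-05 and 2.68e-05) but missed the threshold without Comb 3 (0.0753 and 0.072). Of the 23 genes tested for MHC class II presentation and dendritic cells, 20 had a higher fitted level (median log2 fold change 2.40, and 0.93 without Comb 3), 11 had no overlap and were higher, and DESeq2 called 14 higher, and 4 without Comb 3. Cd209a, a lectin of dendritic cells derived from monocytes, had the largest log2 fold change of the list (5.03 ± 1.16), at 0.37, 0.20 and 0.14 against 1.35, 2.23 and 3.93. For MHC class I the values were much smaller, with a median log2 fold change of 0.18 over 19 genes. B2m, its light chain, was at 12.39, 12.37 and 12.68 against 12.79, 13.23 and 14.33 without overlap, and H2-K1, a heavy chain, was at 10.92, 10.46 and 10.53 against 10.59, 10.79 and 11.14 with overlap.

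Of the 24 pan-macrophage genes tested, 23 had a higher fitted level in Comb, 13 had no overlap and were higher, and DESeq2 called 20 higher, and 2 without Comb 3. Their median log2 fold change was 2.31, and 1.28 without Comb 3. Ccr2, the receptor that brings monocytes out of the bone marrow and into tissue, was at 5.38, 4.91 and 5.03 in the SFIH tumors and at 6.60, 6.49 and 8.44 in the Comb tumors. Here Comb 1 and Comb 2 were alike and both above SFIH. The log2 fold change was 2.39 ± 0.47, and Ccr2 rose by DESeq2 with Comb 3 (adjusted p = 0.000145) and without it (6.69e-06). Adgre1, which encodes F4/80, was at 5.18, 5.38 and 5.47 against 5.62, 7.43 and 9.45, and Itgam, which encodes CD11b, was at 5.22, 4.26 and 4.65 against 5.51, 5.70 and 6.75. C5ar1, the receptor for the complement fragment C5a on myeloid cells, was at 4.42, 4.22 and 4.19 against 4.85, 5.39 and 5.59 and rose by DESeq2 also without Comb 3 (adjusted p = 0.0268).

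Genes of M2-like macrophages had larger fold changes than those of M1-like macrophages. Of the 21 tested M2-like genes, 20 had a higher fitted level, 14 had no overlap and were higher, and DESeq2 called 18 higher, and 5 without Comb 3. The median log2 fold change was 3.73, and 1.91 without Comb 3. Of the 17 tested M1-like genes, 13 had a higher fitted level, 3 had no overlap and were higher, and DESeq2 called 3 higher, and 0 without Comb 3. Their median was 0.77, and 0.60 without Comb 3. The mean level of the M2-like list was 3.47, 3.47 and 4.34 in SFIH, 4.59 in Comb 1, 6.37 in Comb 2 and 8.59 in Comb 3. For the M1-like list it was 3.35, 3.08 and 3.20 in SFIH, 3.32 in Comb 1, 4.14 in Comb 2 and 3.67 in Comb 3, so that the M1-like list was highest in Comb 2.

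Retnla, a secreted protein of macrophages that interleukin 4 induces, had the largest fold change of the M2-like list. Its counts were 22, 25 and 148 against 236, 15352 and 440642, which in Comb 3 was 4.01% of all counts of the library. Mgl2, a lectin of the same cells, was at 1.73, 1.59 and 2.51 against 3.56, 6.27 and 9.46, and Chil3 (Ym1), which has near-identical copies, was at 3.92, 3.74 and 3.64 against 5.03, 6.20 and 7.96. All Comb tumors were above all SFIH tumors for these genes. Mgl2 and Chil3 rose by DESeq2 without Comb 3 as well (adjusted p = 6.69e-05 and 0.00176). Mrc1, which encodes CD206, was at 4.49, 3.95 and 5.67 against 5.74, 8.09 and 9.66, and Arg1, which encodes arginase 1, was at 3.43, 3.78 and 4.90 against 4.35, 6.45 and 10.22, with Comb 1 inside the range of SFIH for Arg1. Of the M1-like genes, Nos2, the inducible nitric oxide synthase, was at 3.75, 2.97 and 2.94 against 2.75, 3.37 and 1.06, and Il12b, a subunit of interleukin 12, was at 1.94, 1.55 and 1.97 against 2.62, 3.95 and 1.87. Both overlapped between the groups.

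Of 17 genes of mast cells and eosinophils in the table, 11 were tested, and all 11 had a higher fitted level. Of these, 9 had no overlap and were higher, and 9 rose by DESeq2, and 6 without Comb 3. The filter keeps a gene that is high in 1 group alone, so 11 of 11 is no share of the whole list. Below the filter, Epx had 0 counts in each tumor, and Tpsab1 had 5, 3 and 7 against 2, 7 and 8. Ms4a2 had 2, 0 and 0 against 2, 5 and 180, and Fcer1a 5, 3 and 2 against 9, 41 and 167. Mcpt1 and Ear6 had 14 and 2 counts in Comb 3, their highest. Over the list the median was 4.78, and 2.69 without Comb 3. Cpa3, the carboxypeptidase of mast cells, was at 2.74, 1.91 and 2.77 in the SFIH tumors and at 3.08, 5.77 and 8.35 in the Comb tumors, and Mcpt4, a mast cell chymase, was at 2.28, 1.66 and 1.58 against 2.32, 4.69 and 7.75. Ccr3, the eotaxin receptor of eosinophils, was at 0.28, 0.29 and 1.03 against 2.07, 4.46 and 7.79, and rose by DESeq2 also without Comb 3 (adjusted p = 0.00904). Ccl24, which encodes the ligand eotaxin-2, had 5, 1 and 1 counts in SFIH and 11, 82 and 2688 in Comb. Ear2, an eosinophil ribonuclease with near-identical copies, had 9, 7 and 10 counts in SFIH and 14, 530 and 9780 in Comb. In Cpa3, Mcpt4, Ccr3, Ccl24 and Ear2, Comb 3 was the highest tumor and Comb 2 came next.

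Of 17 tested neutrophil genes and chemokines, 10 had a higher fitted level, 7 were without overlap and higher, and 2 without overlap and lower, with a median log2 fold change of 0.33 (0.46 without Comb 3). S100a8 and S100a9, abundant proteins of neutrophils, were at 4.62, 4.38 and 4.39 against 4.49, 5.06 and 3.24 and at 4.31, 4.43 and 4.48 against 4.40, 4.65 and 2.68. In both, Comb 3 was the lowest tumor. Retnlg, a resistin-like protein of neutrophils and monocytes, was the 1 gene of the list called by DESeq2, with 19, 24 and 10 counts in SFIH and 105, 429 and 7551 in Comb, and it rose also without Comb 3 (adjusted p = 6.69e-05). Cxcl3, a chemokine for neutrophils, had 38, 44 and 14 counts in SFIH and 8, 3 and 0 in Comb.

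Some of the genes of smallest unadjusted p belonged to none of these groups. Ndrg2, a member of the NDRG family, was at 1.01, 0.86 and 0.87 in the SFIH tumors and at 3.93, 2.54 and 6.78 in the Comb tumors, and with Ccr2 it was 1 of 2 among the 12 higher genes in which Comb 1 exceeded Comb 2. Rnase6, a ribonuclease of monocytes with activity against bacteria, was at 1.64, 1.59 and 1.42 against 2.67, 4.17 and 6.23. Col6a5, a chain of collagen VI, had 0, 0 and 1 counts in SFIH and 6, 226 and 1539 in Comb. On the lower side, Suv420h2, a histone H4 lysine methyltransferase, had the smallest unadjusted p by edgeR, which was 0.000183, and was at 3.22, 2.97 and 3.0 against 1.93, 1.87 and 1.42. Sdc1, the proteoglycan syndecan-1, was at 6.18, 6.60 and 6.48 against 5.72, 5.65 and 5.36. Nubpl, an assembly factor of respiratory complex I, was at 2.61, 2.83 and 2.71 against 1.74, 1.72 and 1.77, and Gas2l1, which links actin and microtubules, was at 5.26, 5.06 and 5.04 against 4.53, 4.14 and 4.37. All 12 higher genes, which were chosen by edgeR from the same counts, passed DESeq2 with and without Comb 3. Of the 12 lower genes, 12 passed it with Comb 3 and 9 without, the exceptions being Gas2l1, Gbe1 and Nubpl.

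Comb 3 was low in the proliferation genes, whose mean level was much alike in the other 5 tumors. The cell cycle list had mean levels of 6.99, 7.13 and 7.05 in SFIH, 7.01 in Comb 1, 6.88 in Comb 2 and 3.76 in Comb 3. Mki67, the proliferation antigen Ki-67, was at 7.73, 8.2 and 8.41 against 8.22, 8.14 and 4.61, and Top2a, a topoisomerase of dividing cells, was at 9.79, 10.23 and 10.47 against 10.39, 9.86 and 6.02. The 42 genes of the list had a median log2 fold change of -0.60, and of -0.08 without Comb 3, and 0 were called by DESeq2. Of them 9 had no overlap and were lower, with Comb 3 as well as without it, beside 8.56% and 12% of all genes. Summed CPM, not scaled by TMM, were 7737 to 8699 in SFIH, 7925 in Comb 1, 6060 in Comb 2 and 623 in Comb 3.

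By the gap to the other 5 tumors, the genes lowest in Comb 3 included 6 that act in mitosis, DNA replication or repair. Bub1, Exo1, Foxm1 and Mcm10 had 0 counts there, which allows up to 3 counts each, beside 294, 269, 266 and 318 counts in Comb 2. Plk4 had 1 count and Cenpe 91, beside 319 and 4222 in Comb 2. The others were Sfmbt2, Tubb3, Tex13 and Xlr3c, with 0, 0, 16 and 6 counts in Comb 3 beside 615, 305, 1016 and 560 in Comb 2. Rhox5, a homeobox gene of the reproductive tract, was not among these but had 21826, 23245 and 16263 counts in SFIH and 13764, 10613 and 329 in Comb.

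The genes highest in Comb 3 by the same measure came from several tissues. Alb and Serpina1c, made by the liver, had 1, 1 and 0 against 1, 14 and 660 and 1, 1 and 0 against 0, 0 and 267 counts. Mb, the myoglobin of muscle, had 7, 2 and 1 against 44, 2 and 1254 counts, and Krt5, a keratin of the basal layer of the skin, had 54, 4 and 0 against 1, 12 and 834. Ear1, an eosinophil ribonuclease with near-identical copies, had 3, 3 and 2 against 5, 202 and 4082, and Cebpe, a factor of granulocyte maturation, had 1, 0 and 5 against 4, 15 and 567. F7, coagulation factor VII, had 6, 4 and 1 against 12, 39 and 989, and H2-M2, a class I-like gene, had 42, 10 and 6 against 24, 108 and 3179. With Retnla and Ccl24 these made up the 10.

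**Figure D4:**
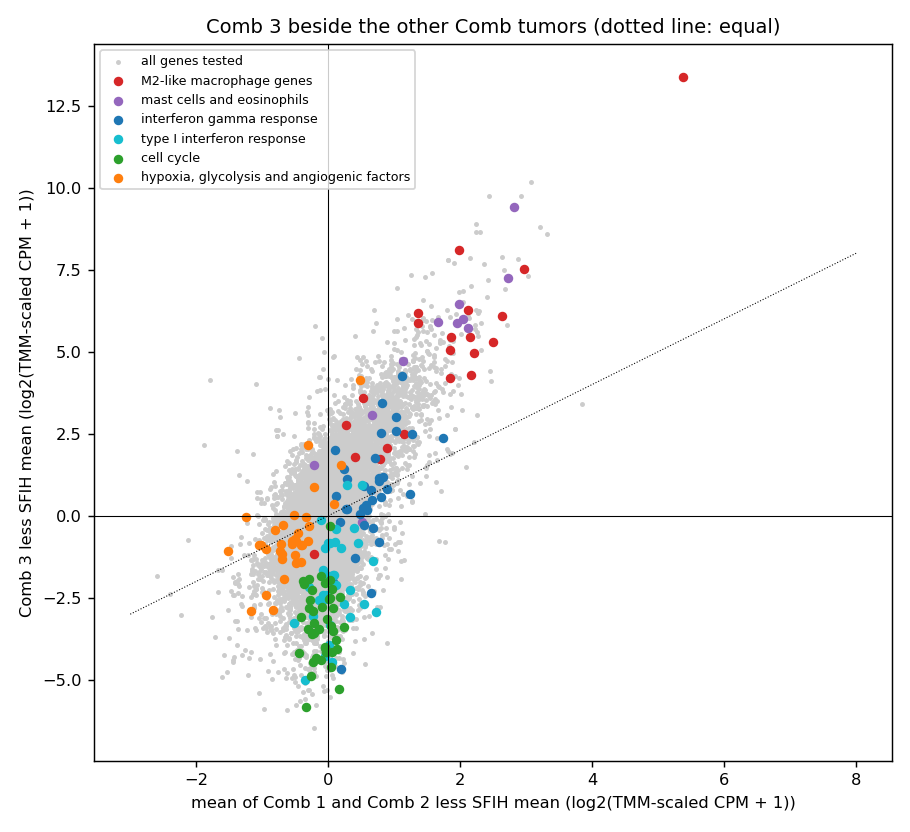
Level of each of the 13464 genes in Comb 3 less the SFIH mean, against the mean of Comb 1 and Comb 2 less the SFIH mean, both on the log2(TMM-scaled CPM + 1) scale, with members of selected lists in color and a dotted line where the values are equal. The M2-like genes lie high in Comb 3 and mostly to the right of 0, the cell cycle genes lie near 0 on the horizontal axis and below 0 on the vertical axis, and most of the hypoxia genes lie below 0 on both.

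Markers of tissue around the tumor were high in Comb 3, those of muscle also in Comb 1 and those of adipocytes also in Comb 2. Skeletal muscle genes had 31 of 32 tested members at a higher fitted level, with a median log2 fold change of 5.85, and 3.02 without Comb 3. The 39 members took 155 to 211 CPM in SFIH, 1410 in Comb 1, 134 in Comb 2 and 9108 in Comb 3. Acta1, skeletal muscle actin, had 199, 3 and 4 counts in SFIH and 1991, 3 and 21163 in Comb, and Ckm, muscle creatine kinase, had 37, 33 and 37 counts in SFIH and 464, 17 and 2773 in Comb.

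Skin and hair genes took 39.4 to 145 CPM in SFIH, 28.2 in Comb 1, 22.1 in Comb 2 and 676 in Comb 3, with 9 of 11 tested members at a higher fitted level and a median log2 fold change of 1.28, and -1.35 without Comb 3. Krt14, a partner of Krt5 that was below the filter on low counts, had 225, 6 and 3 counts in SFIH and 0, 9 and 278 in Comb. Adipocyte genes took 332 to 497 CPM in SFIH, and 367, 919 and 2774 in the Comb tumors, with 14 of 15 tested members at a higher fitted level and a median of 2.12, and 1.5 without Comb 3. Adipoq, the adiponectin gene, was at 0.20, 3.65 and 2.66 against 0.83, 5.31 and 5.16. Plin1, the coat protein of lipid droplets, was below the filter, with 1, 7 and 0 counts in SFIH and 0, 16 and 37 in Comb. The part of these tissues in the hypoxia, immune, stromal and cell cycle values was not tested.

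The mean level of the collagen and fibroblast genes was 5.79, 6.32 and 6.70 in SFIH and 6.27, 7.46 and 8.27 in Comb, so that Comb 1 lay inside the range of SFIH. Of the 33 genes tested, 26 had a higher fitted level, with a median log2 fold change of 1.12, and of 0.64 without Comb 3. Without overlap, 3 were higher and 2 lower, shares near those of all genes (7.65% and 8.56%), and without TMM these numbers were 1 and 4. The 2 lower genes were Pdgfrb, a receptor of platelet-derived growth factor, and Col4a1, a chain of the collagen of basement membranes. Col1a1, a chain of collagen I, was at 7.59, 8.6 and 9.14 in the SFIH tumors and at 8.84, 10.92 and 12.09 in the Comb tumors, and Fap, a protease of activated fibroblasts, was at 2.14, 2.09 and 3.07 against 2.50, 4.36 and 6.38. In both genes Comb 1 lay inside the range of SFIH. Lum, the collagen-binding proteoglycan lumican, did not overlap, at 2.50, 3.23 and 4.22 against 4.33, 6.57 and 9.34.

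Epithelial genes had 8 of 10 tested members at a higher fitted level and 0 without overlap, with a median of 3.61, and 1.56 without Comb 3. Krt8 and Krt18 were at 0.83, 2.0 and 4.99 and 0.66, 2.54 and 4.77 in the Comb tumors, but the list as a whole took 306 to 439 CPM in SFIH and 183 to 262 in Comb. Among the 7 tested genes of B and plasma cells the median was 1.74, and 0.74 without Comb 3. Jchain, the joining chain of secreted antibodies, had 8, 1 and 5 counts in SFIH and 42, 660 and 113 in Comb and rose by DESeq2 also without Comb 3 (adjusted p = 0.0333). Cd79a, a chain of the B cell receptor, was at 2.05, 1.48 and 1.10 against 1.46, 1.25 and 0.0.

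The scaling shifted all genes together, since TMM factors were 1.12, 1.11 and 0.982 in SFIH and 1.02, 0.884 and 0.760 in Comb. Without TMM the median log2 fold change of all genes moved by -0.26, to -0.31. On that scale the medians were 0.43 for the interferon gamma list, 3.35 for the M2-like list, 4.34 for mast cells and eosinophils and -0.89 for the hypoxia list, whereas that of MHC class I changed sign to -0.12. The number of interferon gamma genes without overlap and higher went from 10 to 5, and Irf1 then overlapped between the groups.

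The antibody effect with SFIH was then set beside the effect without it, PD less Con. The fold changes of PD less Con compared other tumors than the 6 above. Its standard errors and p-values were not independent of those 6, because the spread came from the fit of all tumors together. The test of the difference between the effects (the interaction term) called 0 genes by edgeR (0%), with a smallest adjusted p of 0.894 and 344 genes at an unadjusted p under 0.05 (2.55%). DESeq2 called 1 gene, 2610528A11Rik, which is named because of this value. It was at 2.98, 3.15 and 3.49 in the SFIH tumors and at 2.04, 1.62 and 1.22 in the Comb tumors, and at 2.92, 3.0 and 2.52 in Con and 2.95, 3.47 and 3.65 in PD. The Comb tumors were below the SFIH tumors, whereas Con and PD overlapped, and the adjusted p of the difference was 0.0133 by DESeq2. PD less Con had 0 genes called by edgeR and 537 at an unadjusted p under 0.05.

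**Figure D5:**
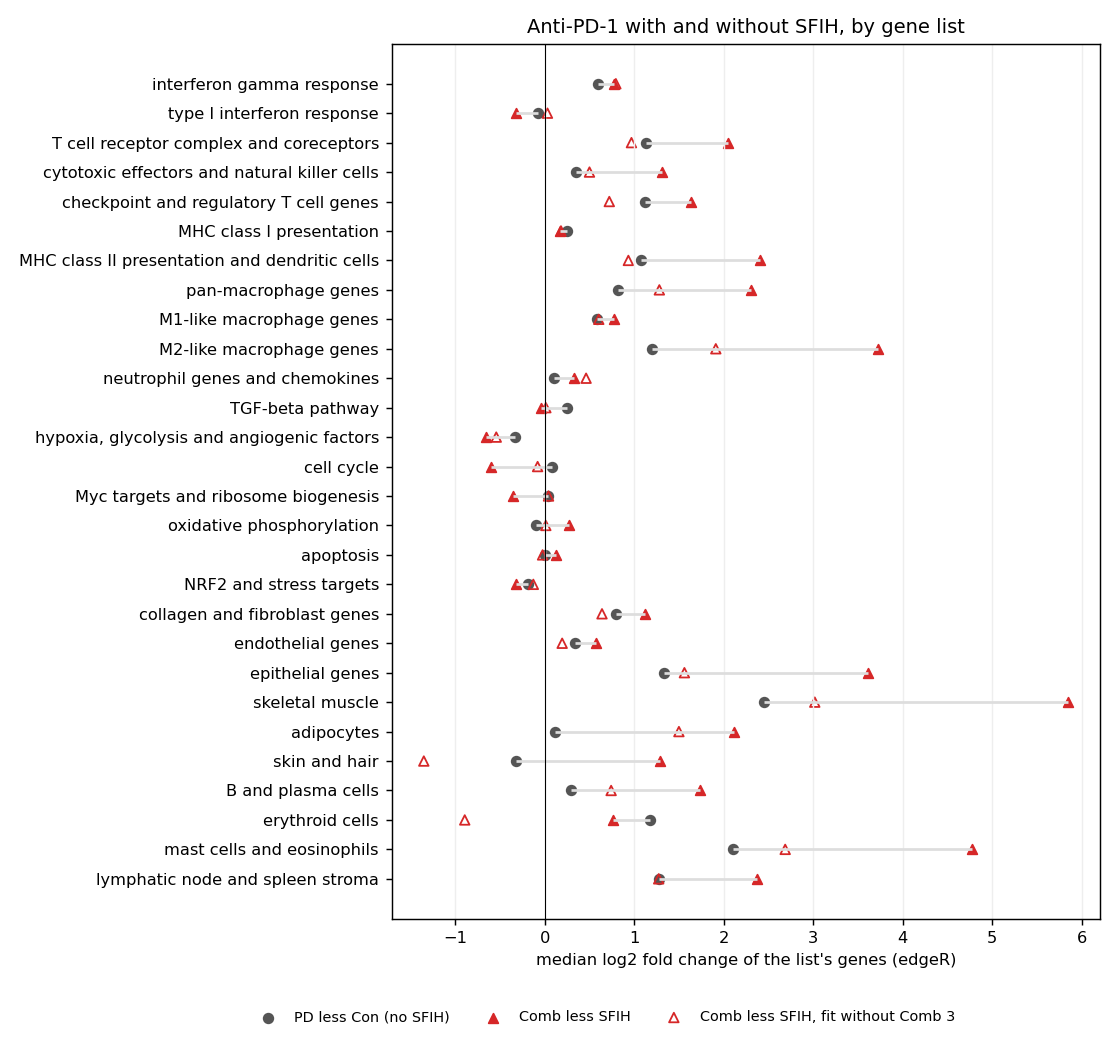
Median edgeR log2 fold change of the tested genes of each list for anti-PD-1 with SFIH (Comb less SFIH, red triangles; open triangles without Comb 3) and without SFIH (PD less Con, grey points). The interferon gamma medians lie close together, at 0.78 and 0.60, and the M2-like, muscle and eosinophil medians lie farther to the right with SFIH, less so without Comb 3.

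For the interferon gamma list the median log2 fold change was 0.60 without SFIH and 0.78 with it. Cxcl9 had 1.54 ± 0.43 without SFIH and 2.15 ± 0.44 with it, and the difference had an unadjusted p of 0.325 by edgeR. For Irf1 the values were 0.58 and 0.63. The hypoxia list had a median of -0.34 without SFIH and -0.65 with it, and Bnip3 had -0.68 and -0.99 (unadjusted p of the difference 0.271 by edgeR). Slc2a1 had -0.70 and -0.68, whereas Vegfa had 0.21 and -0.76, with an unadjusted p of the difference of 0.0301 by edgeR. Gzmc had -1.33 and -2.74.

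The M2-like list had a median of 1.20 without SFIH and 3.73 with it, and 7 of its 21 genes had an unadjusted p under 0.05 for the difference by edgeR. Mgl2 had log2 fold changes of 2.02 and 6.46, and Ccr2 had 1.17 and 2.39. Without Comb 3 the fold changes with SFIH were 3.87 for Mgl2 and 1.45 for Ccr2. None of these differences passed the adjustment over all genes, so a difference between the antibody effects was not detectable in single genes by edgeR with 3 tumors per group and this spread.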

How the data were processed

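RNA of 12 MC38 tumors, 3 in each of 4 groups, was made into QuantSeq 3′ mRNA libraries and sequenced on a NextSeq 500 by the authors, who deposited 1 table of raw counts per gene symbol. The aligner, counter and genome build are not given in the sources used here. The table has 23282 lines, of which 46 share a symbol with another line and 14 carry symbols turned into dates, and 0 other columns of values per sample. Groups came from the labels.

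Of 19137 genes with a count, filterByExpr kept 13464. All 12 tumors were fitted together with TMM scaling by edgeR 4.0.16 (glmQLFit and glmQLFTest, R 4.3.3), with contrasts for Comb less SFIH, PD less Con and the difference between them, two-sided, adjusted after Benjamini and Hochberg at 0.05. The SE after ± is the absolute log2 fold change divided by the square root of the F statistic, so it restates the edgeR test. A pseudocount of 1 was used for levels, and 3 counts as the limit that a count of 0 allows, which covers counting error only. DESeq2 1.42.0, limma 3.58.1 (voom), a fit with the replicate number as a block, other scalings and filters, the 6 tumors alone and leaving out each tumor were the alternatives. The scripts were tested on simulated data. Tables and plots were made with Python 3.11.15, pandas 2.3.3, numpy 2.4.6 and matplotlib 3.10.9.

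Genes were named by rule: the key genes of 28 lists (813 symbols, 790 in the table, 700 tested), the 12 genes per direction of smallest unadjusted p among those without overlap and with a mean of at least 50 counts in the higher group (there were 0 called genes to rank by fold change), the 10 per direction with the largest gap between Comb 3 and the other 5 tumors, and the largest fold changes of a list. Predicted genes were passed over, and some key genes are not reported here. Further list members, such as Ldha, Pgk1, Pkm, Ifngr1, Gbp4, Gbp5, Oas3, Tnfrsf18 and Ccr3, as well as Rhox5, were chosen after their values were seen. The comparison, its members and the lists were chosen with earlier results of these data known. No list was tested as a set. Total counts of 9773778 to 12261032 per tumor limit the precision of low genes.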

Additional observations from a re-analysis of the deposited data

How the results depend on the processing

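The number of genes called between SFIH and Comb was 0 by edgeR with no TMM scaling, with upper-quartile scaling, with no filter, with at least 50 counts on average, with the 6 tumors alone, with or without Comb 3, and with a minimum fold of 1.5. It was also 0 in 2 fits added after seeing the data, robust dispersions and a fit without Retnla, Ccl8 and Rn45s. It was 1157 by DESeq2 and 2019 by limma voom with quality weights. The voom weights were 0.286 for Comb 1, 1.97 for Comb 2 and 0.0596 for Comb 3, so the Comb side of that fit rested mostly on Comb 2. Leaving out 1 tumor gave 0 to 3118, the latter without Comb 1. Without Comb 3, DESeq2 gave 94 and voom, added after seeing the data, 0, and without Comb 1 DESeq2, also added, gave 4481. Of the 1157 genes, 89 were among the 94, and 1123 were among the 3118. The common dispersion of edgeR was 0.158, and 0.0682 without Comb 3 and 0.122 without Comb 1, and the cause of these differences was not tested. The difference between the antibody effects had 1 gene by DESeq2, 0 with the replicate block, and 0 with any of the 12 tumors left out. Without TMM, 627 genes were higher and 2002 lower without overlap.

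With the replicate block 0 genes were called (smallest adjusted p 0.250 by edgeR). Tumors of the same number correlated at 0.115, 0.130 and 0.0098 in their deviations, so the numbers were not taken to pair the tumors, and not every tumor correlated best with its own number.

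Of the fold changes of single genes, 1164 values kept direction and side of the threshold, 159 came to pass it, and 45 changed sign. No gene passed in the main fit, so no call could be lost. With a tumor left out, log2 fold changes ran from -0.53 to 4.88 for Ccl21a, -0.090 to 0.85 for Cd274, -0.90 to 0.16 for Cenpe, -0.71 to 0.76 for Cxcl10, -0.11 to 0.12 for Foxp3, -0.97 to 0.38 for Gzmb, -0.89 to 1.25 for Hba-a1, -1.16 to 1.19 for Hbb-bs, -0.038 to 0.78 for Hmox1, -0.63 to 0.57 for Ifit1, -0.63 to 0.34 for Isg15, -0.98 to 7.57 for Krt5, -0.86 to 0.043 for Mki67, -0.35 to 0.56 for Ncl, -0.16 to 0.022 for Ndufa4, -0.50 to 0.35 for S100a8, -0.66 to 0.13 for S100a9, -2.45 to 7.94 for Serpina1c and -1.17 to 0.038 for Tex13. Most of these turned without Comb 3. Without TMM the value was -0.28 for Foxp3, -0.095 for H2-K1, -0.16 for Ifit1 and -0.10 for Ncl. By voom it was -0.12 for Foxp3, 0.17 for Gzmb, -0.53 for Hba-a1, -0.78 for Hbb-bs, -0.15 for Hmox1, 0.33 for Isg15, 0.14 for Nos2, 0.54 for S100a8, 0.15 for S100a9 and -0.46 for Serpina1c. With the block the log2 fold change of Foxp3 was -0.000195, and it was -0.065 for Ifit1 and -0.092 for Ncl. Foxp3 had -0.045 with no filter, and S100a8 had 0.0055 with at least 50 counts and 0.0015 with the 6 tumors alone. Of the list medians, 371 values moved by less than the SD of the list means of the 3 Comb tumors, and 21 moved by more. Comb 3 widens that SD, so the measure cannot show that a median is stable. The M2-like median, for example, went from 3.73 to 1.91 without Comb 3 and stayed within it.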

Other observations

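Lists not described above differed mainly in Comb 3. For Myc targets and ribosome biogenesis the mean level was 7.36, 7.32 and 7.49 in SFIH, 7.53 in Comb 1, 7.34 in Comb 2 and 5.37 in Comb 3, and the median log2 fold change of the 34 genes was -0.35, and 0.04 without Comb 3. Ncl, the nucleolin gene, was at 11.28, 11.53 and 12.08 against 12.11, 12.35 and 9.48, and Myc was at 4.64, 4.07 and 4.0 against 4.26, 4.02 and 2.05. The 74 genes of oxidative phosphorylation had a mean level of 7.31 to 7.43 in SFIH, 7.35 in Comb 1, 7.45 in Comb 2 and 8.14 in Comb 3. Their median was 0.28, and 0.01 without Comb 3, and it changed sign to -0.04 without TMM scaling. Ndufa4, a subunit of the respiratory chain, was at 6.83, 6.84 and 6.61 against 6.52, 6.71 and 6.84, and Cox4i1, a subunit of cytochrome oxidase, was at 9.49, 9.68 and 9.46 against 8.92, 9.28 and 9.74. NRF2 and stress targets had 23 of 32 genes at a lower fitted level and a median of -0.32, and -0.13 without Comb 3. Nqo1, a quinone reductase, was at 5.13, 4.36 and 4.19 against 4.32, 3.83 and 0.68, and Hmox1, heme oxygenase 1, was at 6.56, 5.98 and 6.89 against 6.85, 5.99 and 7.66.

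The 40 apoptosis genes had a median of 0.13, and -0.02 without Comb 3, and -0.16 without TMM scaling. Bax, which opens the mitochondrial membrane, was at 3.81, 3.74 and 3.79 against 4.07, 4.01 and 4.70 without overlap, with an adjusted p of 0.206 by DESeq2. The 36 genes of the TGF-beta pathway had a median of -0.04, and 0.01 without Comb 3, with Tgfb2 at 2.80, 3.74 and 3.19 against 2.55, 3.25 and 2.86. Tgfb1 was below the filter, with 8, 9 and 4 counts in SFIH and 8, 0 and 0 in Comb. Of 24 endothelial genes, 17 had a higher fitted level (median 0.58, and 0.20 without Comb 3). Pecam1, which encodes CD31, was at 5.26, 5.33 and 5.16 against 4.99, 6.15 and 6.48, and Kdr, the main receptor for VEGF-A, was at 3.95, 4.21 and 4.32 against 4.69, 4.87 and 3.77, where Comb 1 and Comb 2 lay above and Comb 3 below the SFIH tumors. The 5 erythroid genes had a median of 0.76, and -0.89 without Comb 3, and the globins Hba-a1 and Hbb-bs, which have near-identical copies, were at 5.99, 8.51 and 8.89 against 6.82, 7.73 and 10.24 and 5.60, 8.17 and 8.57 against 6.22, 7.13 and 9.88. The 8 tested genes of lymph node and spleen stroma had a median of 2.37, and 1.27 without Comb 3. Ccl21a, a chemokine of lymph nodes that has near-identical copies, was at 4.89, 1.62 and 0.14 against 0.26, 3.93 and 6.46, with both groups spread widely, and Ccl19 was below the filter, with 0, 2 and 1 counts in SFIH and 0, 12 and 11 in Comb.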
